A study of Mus musculus with 10 samples.

Results

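The chemokine system of mouse tumors was described here from its ligand and receptor genes. Its members were the genes of the expression table whose symbol begins with Ccl, Cxcl, Ccr, Cxcr or Ackr followed by a number, together with Cx3cl1 and Cx3cr1, which gave 60 of the 21959 genes (38 ligands, 18 signaling receptors and 4 atypical receptors). The tumors are described as grown from 4T1 cells, a line from a mouse mammary carcinoma that stands for the triple-negative form of the disease. These cells were injected under the skin of the abdomen of BALB/c mice (female, 5-6 weeks of age). Of the 2 groups, the exercise group (E, n = 5) could run as fast and as far as each animal chose over the 21 days, while the non-exercise group (NE, n = 5) was kept in the usual way. By the study's description, all tumors came from this single cell line. They were sequenced as whole tissue on day 21, with 1 mRNA library per tumor, so that tumor cells and host cells were measured together.

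Chemokines are small secreted proteins that guide the migration of leukocytes and some other cells along concentration gradients. Most act through receptors coupled to G proteins, one receptor usually binding several ligands and one ligand often several receptors, whereas atypical receptors bind and remove chemokines without that signal. In mammary tumors they are known for the recruitment of monocytes, neutrophils and T cells.

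The reads counted on genes numbered from 15045613 (E5) to 20646763 per library in the E group, where the median was 18645694, and from 18706032 to 23092251 in the NE group, where it was 22723771. Levels are given as FPKM, in which the reads of a gene are divided by its length and by all reads counted in that library. Genes are thus compared per length only, and the scale holds no adjustment for the make-up of a library. Differences between the groups are log2 fold changes of E over NE with their standard error (SE), from edgeR's quasi-likelihood test on the counts. To be called, a gene had to differ at least 2-fold with a false discovery rate (FDR, adjusted by Benjamini-Hochberg over all genes tested) of at most 0.05. In whole tissue, fewer cells of a type and less RNA per cell cannot be told apart.

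Several libraries stood apart from the others. Summed over 8 neutrophil markers, E1 to E5 had 18.4, 16.2, 9.47, 21.9 and 333 FPKM, and NE1 to NE5 had 8.12, 14.0, 17.6, 44.5 and 21.0 FPKM. The excess in E5 lay mainly in S100a9, the most abundant of the 8 (189 FPKM in E5, 2.46 to 10.2 in the others), and S100a8 (101 FPKM in E5, 1.08 to 6.28 in the others), while Ly6g, a surface marker of mature neutrophils, was at 0.282 FPKM in E5 and at most 0.374 in any tumor. E5 also had the highest sums of 6 fibroblast markers (1775 FPKM, against 105 to 570 in the others), of 6 endothelial markers (37.1 FPKM, against 19.4 to 31.6) and of 3 eosinophil markers (2.70 FPKM, against 0.0155 to 2.06). NE1 had the lowest sum of 9 macrophage and monocyte markers, 882 FPKM against 1716 to 3002 in the other tumors, with Lyz2 as the most abundant gene of the list. It was the lowest tumor for 12 of the 15 marker lists, among them T cells (20.3 FPKM, against 28.0 to 47.1 in the others), NK cells (2.68 against 5.08 to 9.55), B cells (0.599 against 0.80 to 3.10), dendritic cells (12.9 against 14.3 to 23.1), mast cells (10.3 against 49.3 to 133) and fibroblasts (105 against 239 to 1775). Skeletal muscle markers, led by Acta1, summed to 13559 FPKM in NE4 and 2074 in E2 but to 5.47 in NE1, and differentiated keratinocyte markers to 14.8 FPKM in NE5 and 1.17 to 1.87 in the others.

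The epithelial markers expected of a mammary carcinoma were scarcely present. Krt8 did not exceed 0.618 FPKM and Krt18 did not exceed 1.46 FPKM in any tumor, and Krt14 and Krt5 reached 30.3 and 13.0 FPKM in NE5 but at most 0.358 and 0.0883 FPKM in the others. Epcam lay between 0.244 and 1.41 FPKM, and Cdh1, which encodes E-cadherin, between 1.42 and 4.44 FPKM. Reads of the Y-linked genes Kdm5d, Uty, Ddx3y and Eif2s3y were counted in every tumor, with lowest counts of 57, 37, 108 and 92, although the mice are described as female. Whether these features of the libraries bear on the differences described here was not tested.

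Of the 60 members, 56 had at least 1 read and 45 passed the filter on low counts and were tested (29 ligands, 13 signaling receptors and 3 atypical receptors). Mean FPKM over the 10 tumors was at least 1 for 39 members, at least 10 for 20 and at least 100 for 3. No member was called, against 0 of 13517 genes tested (0%), and the smallest FDR of a member was 0.897 with edgeR. DESeq2 and limma called 0 members as well. At an unadjusted p of at most 0.05, 5 members were higher in E (Cxcl2, Cxcl5, Ccl9, Cxcl3 and Ccl4), while 347 of all genes (2.57%) were higher at that limit. The corresponding count of members lower in E was 0, against 310 genes (2.29%). With the replicate number of the labels as a block, 3 members were higher (Cxcl5, Ccl4 and Cx3cl1), against 380 genes (2.81%). Cxcl2, Cxcl3 and Ccl9 no longer passed there. On the higher side of this unadjusted limit, DESeq2 placed 6 members and 430 of the 17479 genes with a p (2.46%), and limma 1 member and 483 genes (3.57%). DESeq2 gave no p to Cxcl2 and Cxcr2, so that neither could pass or be called there.

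The levels of the groups overlapped for each of the 45 tested members, and 94 of all tested genes (0.695%) had groups without overlap (chance gives 0.794% for 5 tumors against 5). The log2 fold change was positive for 27 members and negative for 18, with a median of 0.15 against −0.01 over all genes tested. This median of the members moved to −0.02 without E5 and to 0.00 without NE1, but to 0.24 without NE3 and 0.25 without NE4. E5 had the highest level of the 10 tumors for 18 of the 45 members (40.0%, against 14.4% of all tested genes), and NE1 had the lowest for 28 (62.2%, against 18.7%). NE4 was highest for 10 members (22.2%, against 15%). The members also varied widely, with a median ratio of 5.25 between the highest and the lowest tumor (42 members read in every tumor) against 1.55 over all genes.

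The number of members at the unadjusted limit depended on single tumors. It was 1 higher in E without E5, namely Ccl2, beside 206 of all genes (1.51%). Without NE1, 6 members were higher (Cx3cl1, Cxcl3, Cxcl2, Ccl9, Ackr4 and Cxcl5) and 4 lower (Ccr2, Cxcl9, Ccl27a and Cxcr5) of 47 tested, beside 793 higher (5.82%) and 557 lower (4.09%) of all genes. The higher count was 8 without E3 (341 of all genes, 2.50%), 2 without NE2 (295, 2.16%) and 1 without NE3 (211, 1.55%), and the lower count was 1 without E2 (188, 1.38%).

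**Figure D1:**
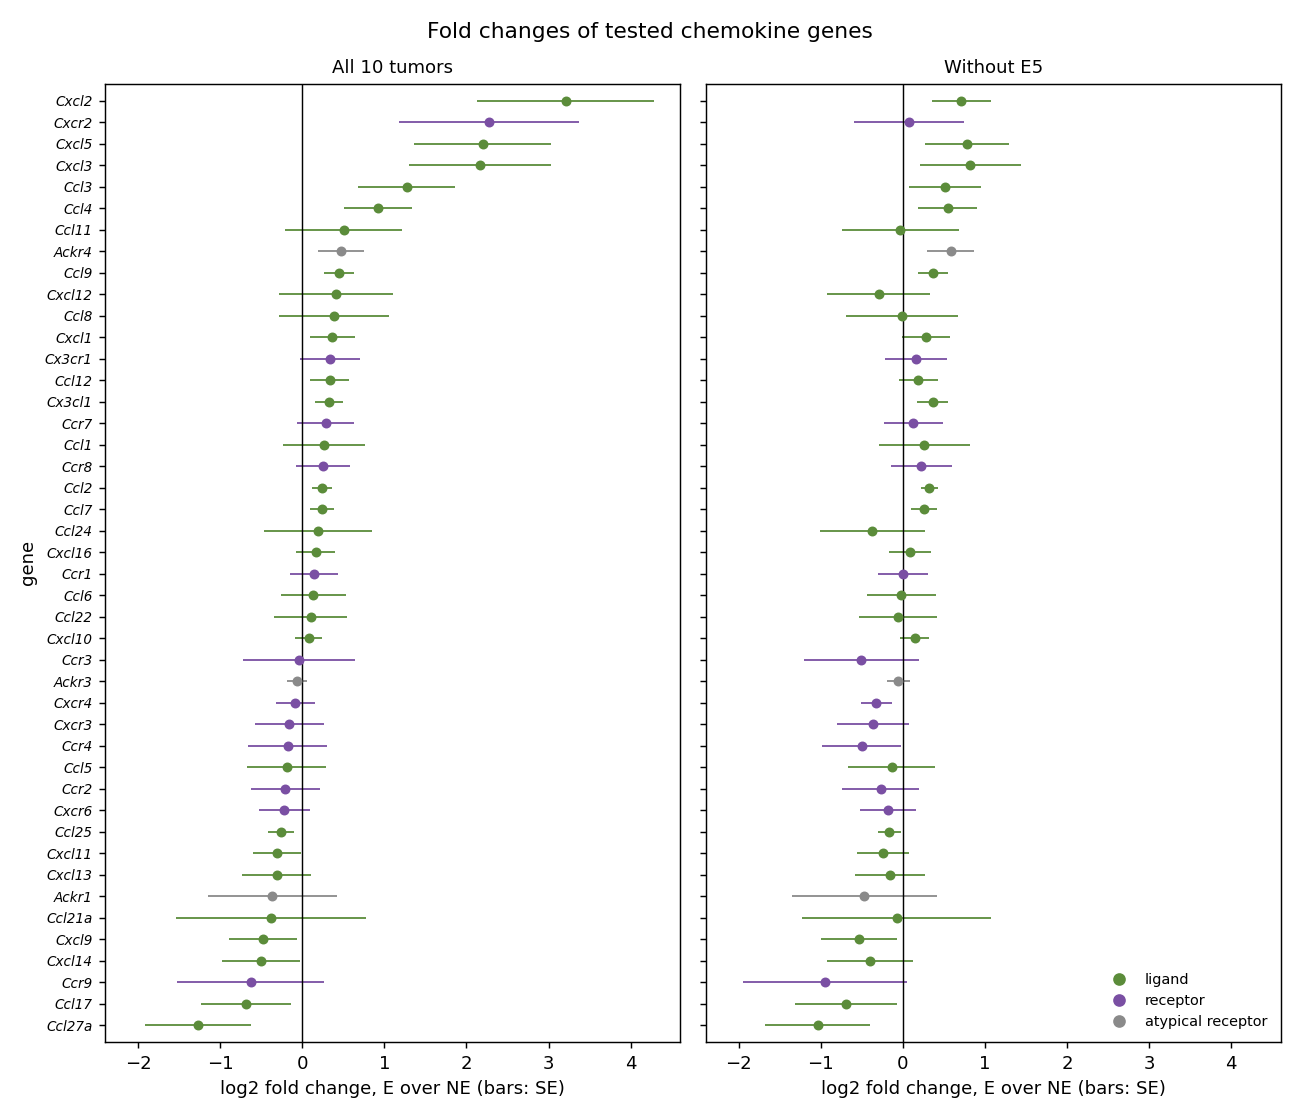
Log2 fold changes (E over NE, horizontal axis) of 44 tested chemokine genes, in order of the value with all 10 tumors, for all tumors (left) and without E5 (right); points are the fitted values, bars the standard errors, and colors the role of the gene. Cxcl2, Cxcr2, Cxcl5 and Cxcl3 lie farthest to the right with all tumors (3.21, 2.27, 2.20 and 2.17) and at 0.71, 0.08, 0.78 and 0.82 without E5.

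The ligands with the highest levels were mostly CC chemokines that attract monocytes and macrophages. Summed over all 38 ligands, the level ranged from 460 FPKM in NE1 to 1602 FPKM in E5. Ccl8, a ligand of Ccr8 in the mouse, made up the largest share in 8 of the tumors, among them 38.8% in E5 and 34.3% in NE4, while Ccl2 led in E3 and NE1. On a scale that ignores gene length (CPM, counts scaled to the library total), the order differed, with Cxcl9 first and Ccl8 in position 5.

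Ccl8 stood at 291, 249, 70.4, 344 and 622 FPKM in E1 to E5 and at 29.6, 134, 197, 447 and 351 FPKM in NE1 to NE5. It was lowest in NE1 and E3 and highest in E5 and NE4, with a 21.0-fold range over the tumors and groups that overlapped almost entirely. For Ccl8 the log2 fold change was 0.39 (SE 0.67), and it was −0.01 (SE 0.68) without E5, 0.11 without NE1 and 0.80 without NE4. Ccl2, the main attractant of monocytes that carry Ccr2, stood at 166, 153, 131, 157 and 111 FPKM in E1 to E5 and at 123, 132, 123, 89.3 and 129 FPKM in NE1 to NE5. Among these genes it was one of the steadiest, with means (± SD, n = 5 each) of 144 ± 22.1 FPKM in E and 119 ± 17.1 FPKM in NE. E1, E2 and E4 lay above all NE tumors, E5 lay within the NE range and NE4 was low. For Ccl2 the log2 fold change was 0.24 (SE 0.12), and 0.32 (SE 0.11) without E5.

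Ccl7 and Ccl12, the other ligands of Ccr2, lie beside Ccl2 on chromosome 11. Ccl7 stood at 120, 90.6, 71.3, 120 and 92.9 FPKM in E1 to E5 and at 67.4, 79.6, 87.0, 81.1 and 94.9 FPKM in NE1 to NE5. E1 and E4 were above every NE tumor and the other 3 were within the NE range. For Ccl7 the log2 fold change was 0.24 (SE 0.15). Ccl12 stood at 45.5, 46.9, 33.5, 37.8 and 63.4 FPKM in E1 to E5 and at 17.9, 36.8, 41.0, 40.2 and 39.4 FPKM in NE1 to NE5. NE1 was far below the others, E5 was highest, and the remaining tumors of both groups were mixed. For Ccl12 the log2 fold change was 0.33 (SE 0.24), and it was 0.17 (SE 0.16) without NE1 and 0.19 without E5.

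Ccl6 and Ccl9 are mouse chemokines made mainly by myeloid cells, and Ccl9 acts through Ccr1. Ccl6 stood at 151, 102, 43.5, 112 and 161 FPKM in E1 to E5 and at 47.1, 91.4, 88.0, 184 and 90.2 FPKM in NE1 to NE5. The highest tumor was NE4 and the lowest were E3 and NE1, so that the groups covered the same range. For Ccl6 the log2 fold change was 0.13 (SE 0.39), and it was −0.02 without E5, −0.04 without NE1 and 0.51 without NE4. Ccl9 stood at 77.8, 69.2, 52.4, 57.8 and 84.7 FPKM in E1 to E5 and at 32.9, 54.9, 47.4, 60.3 and 48.1 FPKM in NE1 to NE5. E1, E2 and E5 were above every NE tumor, NE1 was the lowest, and E3 and E4 were below NE4. For Ccl9 the log2 fold change was 0.45 (SE 0.18, FDR = 0.897 by edgeR), and 0.36 (SE 0.18) without E5.

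Cxcl9 and Cxcl10 are induced by interferon-γ and attract activated T cells and natural killer cells through Cxcr3. Cxcl9 stood at 122, 75.2, 56.5, 67.3 and 97.8 FPKM in E1 to E5 and at 28.1, 111, 182, 152 and 90.5 FPKM in NE1 to NE5. Both the lowest tumor (NE1) and the 2 highest (NE3 and NE4) belonged to NE, and the E tumors lay between them. For Cxcl9 the log2 fold change was −0.47 (SE 0.41), and it was −0.71 (SE 0.26) without NE1 and −0.24 without NE3. Cxcl10 stood at 69.9, 59.4, 48.9, 53.6 and 45.1 FPKM in E1 to E5 and at 40.3, 47.8, 74.1, 47.1 and 47.4 FPKM in NE1 to NE5. NE3 and E1 were high and the other tumors lay close together. For Cxcl10 the log2 fold change was 0.08 (SE 0.17). It was 0.24 without NE3, −0.01 without E1 and −0.03 without NE1 and NE4 together. The gene overlaps Art3 on the opposite strand, and the strand of the counts is not given, although Art3 had far fewer reads (a mean count of 110 against 2440).

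**Figure D2:**
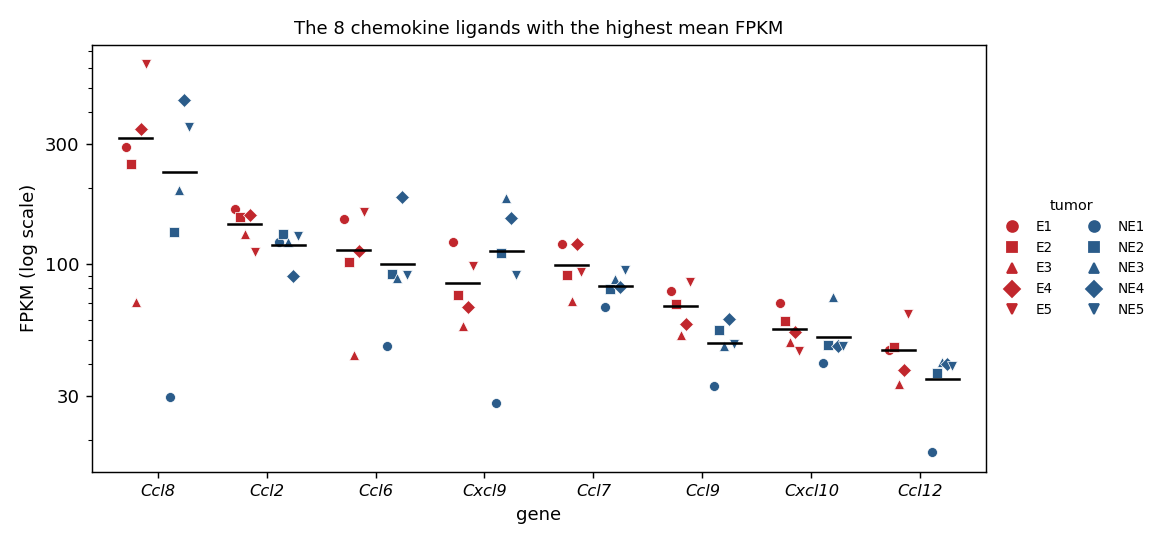
FPKM (vertical axis, log scale) of the 8 ligands with the highest mean level, in each of the 5 E tumors (red) and 5 NE tumors (blue); each symbol is 1 tumor and the horizontal bars are group means. The groups overlap for every gene, NE1 (blue circle) is lowest for Ccl8 (29.6), Cxcl9 (28.1) and Ccl12 (17.9), and E5 (red inverted triangle) is highest for Ccl8 (622).

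Cxcl1, Cxcl2, Cxcl3 and Cxcl5 bind Cxcr2, the receptor that draws neutrophils out of the blood. Cxcl15 was counted with these ligands here, and Ppbp, which the rule on names leaves out, was not. All 5 Cxcl genes lie together on chromosome 5 (90907219 to 91053797 in the coordinates of the table). The build of these coordinates is not given in the sources used here. Cxcl2 stood at 3.61, 2.28, 1.95, 3.52 and 69.6 FPKM in E1 to E5 and at 2.18, 2.22, 1.23, 0.674 and 2.22 FPKM in NE1 to NE5. E5 was 19.3 times the next highest tumor, E1, and the other 4 E tumors had a mean of 2.84 ± 0.848 FPKM (SD, n = 4) against 1.71 ± 0.714 in NE (SD, n = 5). For Cxcl2 the log2 fold change was 3.21 (SE 1.08, FDR = 0.897 by edgeR), and 0.71 (SE 0.36) without E5. With the replicate number as a block it was 1.61 (SE 0.77). Cxcl5 stood at 3.98, 4.43, 2.34, 7.64 and 43.6 FPKM in E1 to E5 and at 1.98, 1.95, 1.09, 1.89 and 6.15 FPKM in NE1 to NE5. All E tumors were above NE1 to NE4, but NE5 was above E1, E2 and E3. For Cxcl5 the log2 fold change was 2.20 (SE 0.83), and 0.78 (SE 0.51) without E5.

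Cxcl3 stood at 1.04, 1.33, 0.902, 2.19 and 12.1 FPKM in E1 to E5 and at 1.52, 0.795, 0.528, 0.0747 and 0.896 FPKM in NE1 to NE5. E5 was again far above the rest and NE4, with 6 reads, was close to 0. For Cxcl3 the log2 fold change was 2.17 (SE 0.87), and 0.82 (SE 0.61) without E5. Cxcl1 stood at 6.17, 6.75, 5.43, 9.95 and 9.43 FPKM in E1 to E5 and at 8.06, 5.96, 5.91, 2.51 and 6.28 FPKM in NE1 to NE5. Here E5 did not stand apart, as E4 was slightly higher and NE1 came next. For Cxcl1 the log2 fold change was 0.37 (SE 0.27), and it was 0.28 (SE 0.29) without E5, 0.18 without NE4 and 0.52 without NE1. Cxcl15, named lungkine for its place of expression, was too low to be tested, with 0.137, 0.126, 0.639, 0.228 and 0.250 FPKM in E1 to E5 and 0.102, 0.302, 0.207, 0.0820 and 0.176 FPKM in NE1 to NE5.

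The receptor Cxcr2 was itself at low levels. It stood at 0.334, 0.317, 0.159, 1.06 and 9.01 FPKM in E1 to E5 and at 0.185, 0.246, 0.245, 0.40 and 1.07 FPKM in NE1 to NE5. E5 was 8.39 times the next highest tumor, NE5, and E4 and NE5 were above the remaining tumors of their groups. For Cxcr2 the log2 fold change was 2.27 (SE 1.09), and 0.08 (SE 0.67) without E5. Summed over the 5 ligands, the level was 14.9, 14.9, 11.3, 23.5 and 135 FPKM in E1 to E5 and 13.8, 11.2, 8.97, 5.24 and 15.7 FPKM in NE1 to NE5. E5 was thus the highest tumor for the receptor, for the ligand sum and for the neutrophil markers, while NE4, next in the neutrophil markers (44.5 FPKM), had the lowest ligand sum (5.24 FPKM) and 0.40 FPKM of the receptor. The part of the neutrophil markers in these differences was not tested.

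**Figure D3:**
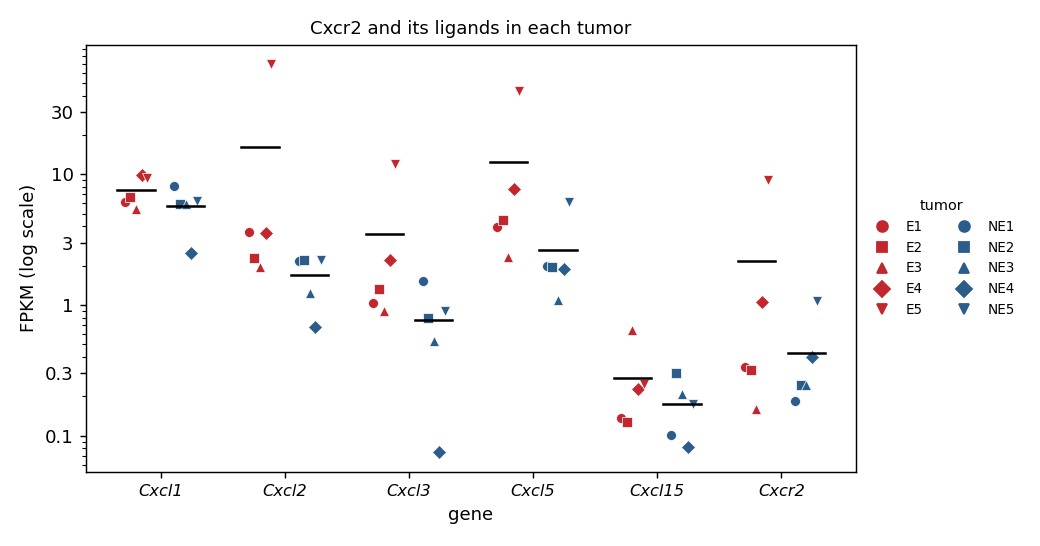
FPKM (vertical axis, log scale) of Cxcr2 and the 5 ligands grouped with it here, in each of the 5 E tumors (red) and 5 NE tumors (blue). Each symbol is 1 tumor and the horizontal bars are group means. E5 (red inverted triangle) lies far above all others for Cxcl2 (69.6), Cxcl3 (12.1), Cxcl5 (43.6) and Cxcr2 (9.01), but not for Cxcl1 (9.43, against 9.95 in E4).

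Cxcl1, Cxcl2 and Cxcl3 are near relatives whose levels parted in E5, and their promoters were set side by side for that reason. Promoters in RefSeq (build GRCm38.p6) were matched by symbol for 45 of the 60 members, each reaching from 250 bases before to 50 bases after the start of the gene. The NF-κB motif, named for a family of transcription factors active in inflammation, was searched on both strands, and so were the letters ATAAAA, which resemble a TATA box. The NF-κB motif was found in the promoters of 10 of the 45 members (22.2%) and of 5.14% of all 27025 genes with promoters of the same length, and ATAAAA in those of 18 of the 45 members (40.0%) and of 21.0% of all genes. The 10 members were Cxcl1, Cxcl2, Cxcl3, Cxcl10, Ccl9, Ccl20, Ccl27a, Ccr3, Ccr6 and Ackr2, and no promoter of Cxcl5 was used here. The 100 bases before the start of Cxcl1 (chr5:90891145-90891244, plus strand), Cxcl2 (chr5:90903799-90903898, plus strand) and Cxcl3 (chr5:90786001-90786100, plus strand) follow, with the match to the NF-κB motif in capitals.
Cxcl1: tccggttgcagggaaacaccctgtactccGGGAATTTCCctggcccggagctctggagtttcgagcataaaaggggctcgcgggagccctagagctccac
Cxcl2: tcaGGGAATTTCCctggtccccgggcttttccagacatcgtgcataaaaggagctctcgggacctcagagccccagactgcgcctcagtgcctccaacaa
Cxcl3: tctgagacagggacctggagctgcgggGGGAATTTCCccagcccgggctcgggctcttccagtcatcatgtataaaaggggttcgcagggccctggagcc
The longest run of bases shared by all 3 stretches had 11 bases and contained the capitals with the base that follows them. The first base of the motif lay at −71 in Cxcl1, −97 in Cxcl2 and −73 in Cxcl3 relative to the start, with ATAAAA nearer to the start in each (first base at −34, −57 and −29). A match describes the sequence only, and its part in the levels was not tested.

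Ccl3 and Ccl4, the macrophage inflammatory proteins, also reached their highest level in E5. Ccl4 stood at 18.3, 6.50, 9.34, 7.84 and 26.7 FPKM in E1 to E5 and at 4.59, 5.18, 8.87, 6.07 and 10.5 FPKM in NE1 to NE5. E1 and E5 were above every NE tumor, while E2, E3 and E4 lay within the NE range. For Ccl4 the log2 fold change was 0.92 (SE 0.41), and 0.55 (SE 0.36) without E5. Ccl3 ranged from 1.68 to 18.7 FPKM in E, with E5 highest and E2 lowest, and from 2.09 to 3.72 FPKM in NE (log2 fold change 1.27, SE 0.59, and 0.51 without E5).

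None of the remaining tested ligands passed the unadjusted limit in edgeR's test with all tumors. Cxcl16, a ligand made as a membrane protein, ranged from 25.9 to 38.7 FPKM in E and from 12.5 to 34.5 FPKM in NE, with NE1 lowest, and overlaps Zmynd15 on the opposite strand. Cx3cl1, the membrane-anchored ligand of Cx3cr1, lay between 12.0 and 16.0 FPKM in E and between 8.28 and 9.47 FPKM in NE2 to NE5, but at 16.5 FPKM in NE1, the highest of all tumors. For Cx3cl1 the log2 fold change was 0.32 (SE 0.17) with all tumors and 0.55 (SE 0.09, FDR = 0.473 by edgeR) without NE1. Cxcl12, which retains cells carrying Cxcr4 and is made by stromal cells, ranged from 2.0 to 18.3 FPKM in E and from 0.996 to 12.4 FPKM in NE, highest in E5 and NE4 and lowest in NE1. Ccl11, an attractant of eosinophils, had its highest level in E5 as well (28.1 FPKM) and its lowest in NE1 (0.720 FPKM), a 39.0-fold range. The sum of 3 eosinophil markers was highest in E5 (2.70 FPKM) and lowest in NE1 (0.0155 FPKM) too. These markers were low, since only 1 of the 3 passed the filter on low counts and the most abundant, Siglecf, had a mean of 0.654 FPKM. The fibroblast markers were also highest in E5 (1775 FPKM) and lowest in NE1 (105 FPKM), and NE1 was lowest for 12 of the 15 marker lists. Cxcl14 reached 60.2 FPKM in NE4 and lay between 10.1 and 27.0 FPKM in the others. Ccl5, which attracts T cells, was highest in NE4 (38.8 FPKM) and E1 (36.8 FPKM) and lowest in NE1 (6.09 FPKM), as were the T cell markers.

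Ccl22 and Ccl17, the ligands of Ccr4, had means of 5.59 ± 1.74 and 0.878 ± 0.551 FPKM in E and of 5.03 ± 2.95 and 1.35 ± 0.860 FPKM in NE (SD, n = 5 each), and both were highest in NE4. The ligands of Ccr7 that direct cells to lymph nodes were low and uneven, with Ccl21a between 0.0764 and 7.25 FPKM in E and between 0 and 5.11 FPKM in NE. Its value is uncertain, since 71.6% of the 50-base stretches of its transcripts (GENCODE M21) also occur in another gene, and its copies Ccl21b and Ccl21d had no reads in any tumor. Ccl27a, lower in E at the unadjusted limit without NE1, had between 1 and 33 reads per tumor, shares 45.0% of its stretches with another gene and overlaps Il11ra1. Cxcr5, with 3 to 29 reads per tumor, likewise overlaps Bcl9l on the opposite strand. Of the 60 members, 39 shared no such stretch, while Cxcl2 shared 5.84% of its stretches and Cxcl3 4.24%. The 15 members that were not tested included the 4 without reads (Ccl26, Ccl21b, Ccl21d and Ccl27b), and none of the 15 exceeded 0.639 FPKM or 29 reads in any tumor, the highest level being that of Cxcl15 in E3.

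Receptors were lower than ligands, with sums over the 22 receptor genes between 61.6 FPKM in NE1 and 173 FPKM in E5. NE1 was the lowest tumor for 12 of the 13 tested signaling receptors and E5 the highest for 6. The median log2 fold change of these 13 was −0.04, with 6 positive and 7 negative values, and the smallest unadjusted p was that of Cxcr2. The middle value of the 13 was −0.18 (Cxcr6) without E5 and −0.21 (Cxcr4) without NE1.

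Ccr1, a receptor of monocytes, macrophages and neutrophils, stood at 27.8, 22.7, 25.3, 23 and 37.9 FPKM in E1 to E5 and at 9.08, 26.9, 33.3, 25.4 and 25.5 FPKM in NE1 to NE5. E5 was highest and NE1 far below the others, which lay close together. For Ccr1 the log2 fold change was 0.15 (SE 0.29), 0.01 without E5 and −0.05 without NE1.

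Ccr2, which marks inflammatory monocytes, stood at 12.3, 15.5, 12.8, 14.4 and 17.2 FPKM in E1 to E5 and at 2.82, 19.9, 23.6, 18.9 and 15.6 FPKM in NE1 to NE5. NE1 was lowest by far, while NE2, NE3 and NE4 were above every E tumor and NE5 was above all E tumors but E5. For Ccr2 the log2 fold change was −0.20 (SE 0.42) with all tumors and −0.46 (SE 0.13, FDR = 0.473 by edgeR) without NE1, but −0.037 without NE3, and slightly positive with limma (0.077) and with the replicate number as a block (0.034). The macrophage and monocyte markers moved the same way in NE1, where they were lowest, and their part in this difference was not tested. Cx3cr1, found on monocytes, macrophages and some lymphocytes, stood at 11.1, 11.1, 10.1, 7.55 and 17.0 FPKM in E1 to E5 and at 3.20, 13.0, 14.0, 6.90 and 6.50 FPKM in NE1 to NE5. The tumors of NE were split, with NE2 and NE3 near the upper end and NE1 lowest. For Cx3cr1 the log2 fold change was 0.34 (SE 0.37), and it was 0.16 without E5, 0.14 without NE1, 0.58 without NE3 and 0.016 without NE1 and NE4. Wdr48 and other genes overlap it, which adds to the uncertainty.

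Cxcr4, the receptor of Cxcl12, stood at 10.7, 11.1, 13.9, 13.1 and 23.7 FPKM in E1 to E5 and at 9.22, 15.4, 17.6, 15.8 and 16.7 FPKM in NE1 to NE5. E5 was the highest and NE1 the lowest, while the other 4 E tumors were below the other 4 NE tumors. For Cxcr4 the log2 fold change was −0.08 (SE 0.24), and it was −0.32 (SE 0.19) without E5 but 0.019 without E1 and 0.0030 without E2. Cxcr6, which is found on effector T cells and natural killer T cells, stood at 6.45, 3.28, 6.78, 5.64 and 4.82 FPKM in E1 to E5 and at 2.53, 5.65, 8.48, 7.02 and 7.0 FPKM in NE1 to NE5. NE1 was again lowest, with E2 next, and NE3 highest. For Cxcr6 the log2 fold change was −0.22 (SE 0.31), and it was −0.41 without NE1, −0.082 without E2 and −0.083 without NE3. The gene overlaps Fyco1, and the T cell markers were lowest in NE1 too.

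Ccr7, which guides dendritic cells and naive T cells to lymph nodes, stood at 4.77, 6.05, 4.64, 5.29 and 8.30 FPKM in E1 to E5 and at 1.66, 3.81, 7.03, 6.46 and 4.14 FPKM in NE1 to NE5. E5 was highest and NE1 lowest, and the groups overlapped. For Ccr7 the log2 fold change was 0.29 (SE 0.34), and it was 0.13 without E5, 0.079 without NE1 and 0.48 without NE3. Cxcr3, the receptor of Cxcl9, Cxcl10 and Cxcl11 on activated T cells, had means of 3.61 ± 1.12 FPKM in E and 3.90 ± 2.14 FPKM in NE (SD, n = 5 each). The eosinophil receptor Ccr3 ranged from 0.623 to 2.80 FPKM in E and from 0.132 to 3.25 FPKM in NE, with NE4 and E5 highest. Ccr8 lay between 0.405 FPKM in NE1 and 1.73 FPKM in E2, and Ccr4 did not exceed 0.451 FPKM in any tumor.

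**Figure D4:**
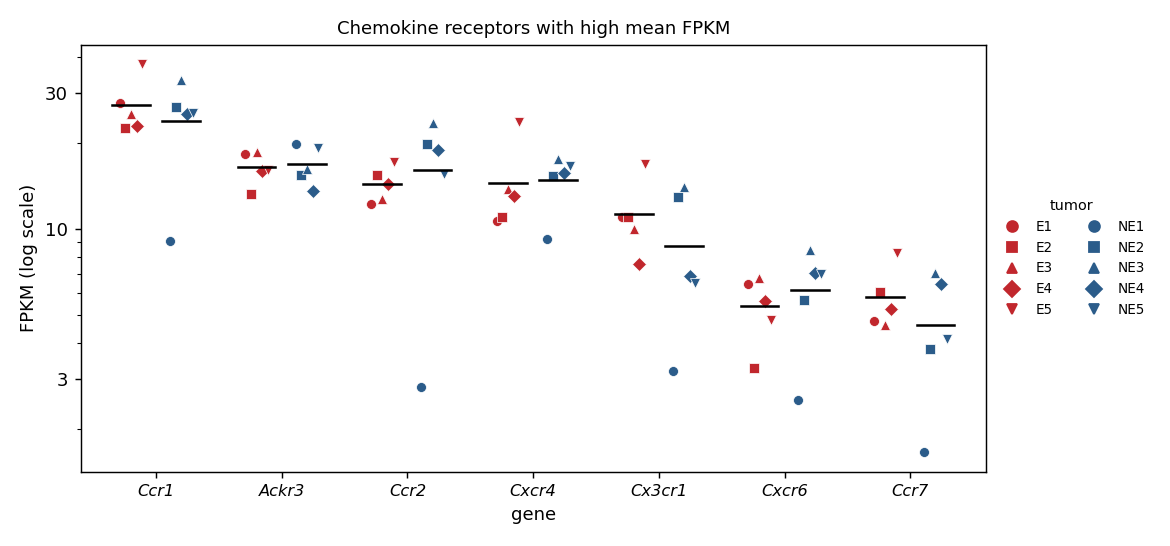
FPKM (vertical axis, log scale) of 7 receptors with high mean levels, the atypical receptor Ackr3 among them, in each of the 5 E tumors (red) and 5 NE tumors (blue); each symbol is 1 tumor and the horizontal bars are group means. NE1 (blue circle) is the lowest tumor for 6 of the 7 genes, for example Ccr2 at 2.82, but the highest for Ackr3 (19.9), and the groups overlap for every gene.

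Ackr3, an atypical receptor that removes Cxcl12, differed from the signaling receptors in its pattern. It stood at 18.4, 13.3, 18.6, 15.9 and 16.2 FPKM in E1 to E5 and at 19.9, 15.5, 16.2, 13.6 and 19.3 FPKM in NE1 to NE5. The 10 tumors stayed within a 1.5-fold range, NE1 was the highest, and the groups overlapped. For Ackr3 the log2 fold change was −0.06 (SE 0.12), and 0.00 without NE1. Ackr4, which removes Ccl19, Ccl21 and Ccl25, had means of 1.99 ± 0.472 FPKM in E and 1.41 ± 0.555 FPKM in NE (SD, n = 5 each; log2 fold change 0.47, SE 0.28) and overlaps Acad11 on the opposite strand. Ackr1, found on the endothelium of venules, was at most 1.58 FPKM, in NE4, and had no reads in NE1, which at that depth allows up to 0.130 CPM, and its value is uncertain because Cadm3 overlaps it on the same strand. Ackr2, which removes inflammatory CC chemokines, did not exceed 0.314 FPKM and was not tested.

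Receptors were then set beside the summed level of their ligands. Of the 15 receptors paired with ligands, 13 had reads in every tumor. NE1 was the lowest tumor for 11 of these receptors, and for 9 of them it was also the lowest for the ligand sum. The pairs are not separate, since Ccl5 was summed for Ccr1 and Ccr3, and Ccl7 for Ccr1, Ccr2 and Ccr3. NE1 was also the lowest tumor for 62.2% of all tested members. The mean ligand sum was higher in E for 9 of the 13 and the mean receptor level for 6. Only for Cxcr2 and Cxcr4 was E5 the highest tumor on both sides, and Cxcl12 stood at 18.3 FPKM beside 23.7 FPKM of Cxcr4 in that tumor.

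The 3 ligands of Ccr2 summed to 288 ± 37.8 FPKM in E and 236 ± 25.1 FPKM in NE (SD, n = 5 each), while the receptor had means of 14.4 ± 2.02 and 16.2 ± 7.99 FPKM. The ligand sum was highest in E1 (332 FPKM) and the receptor highest in NE3 (23.6 FPKM), so that the sides did not follow the same order of tumors. The ligands of Cxcr3 summed to 140 ± 32.6 FPKM in E and 165 ± 70.4 FPKM in NE (SD, n = 5 each), with NE3 highest (258 FPKM) and NE1 lowest (69.1 FPKM). The ligands of Ccr1 summed to between 156 FPKM in NE1 and 394 FPKM in E1. For Cx3cr1 and Cx3cl1 the order was opposite in NE1, which had the least receptor (3.20 FPKM) and the most ligand (16.5 FPKM). Ccr8 had the most ligand for its own level, with a sum of Ccl1 and Ccl8 that was 241 times its mean. By contrast, Ccl20 and its receptor Ccr6 were both near the limit of detection, with at most 2 and 3 reads in any tumor.

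Many members lie next to each other in the genome, in the coordinates of the table. The cluster with Ccl2, Ccl7, Ccl11, Ccl12, Ccl8 and Ccl1 (chromosome 11, 81926397 to 82196516) had positive fold changes for all 6, with 0 at the unadjusted limit. The median was 0.30, or 0.22 without E5, where 4 were positive and 2 negative (Ccl8 and Ccl11). Without NE1 all 6 stayed positive, and the middle values were 0.18 (Ccl7) and 0.17 (Ccl12). Farther along (83416604 to 83555509), Ccl5, Ccl9, Ccl6, Ccl3 and Ccl4 had 4 positive and 1 negative fold changes, with a median of 0.45, or 0.36 without E5, where Ccl6 turned negative as well. The 4 tested Cxcr2 ligands on chromosome 5 were all positive, with a median of 2.18, or 0.75 without E5. Next to them on the same chromosome (92469206 to 92513344), Cxcl9, Cxcl10 and Cxcl11 had a median of −0.31, or −0.25 without E5.

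Other genes of the chemokine system were taken from 4 lists. Of the 54 genes tested there, 3 (5.56%) were higher in E at the unadjusted limit, against 2.57% of all genes. Among Xcl1, Xcr1, Pf4, Ppbp and Ccrl2, chemokine genes with other names, 1 of 5 was higher in E at the unadjusted limit. This was Pf4, the platelet chemokine Cxcl4, at 32.3, 38.3, 30.4, 44.6 and 92.7 FPKM in E1 to E5 and at 31.1, 32.9, 19.96, 25.7 and 31.2 FPKM in NE1 to NE5. E5 stood out, E2 and E4 were above every NE tumor, and the groups overlapped. For Pf4 the log2 fold change was 0.72 (SE 0.29), and 0.34 without E5. None of the 27 genes of receptor signaling, such as the G protein subunit Gnai2 and the Rac activator Dock2, passed in either direction in edgeR's test. Their median log2 fold change was 0.03, but −0.04 without E5 and −0.07 without NE1.

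Of 19 inducers of chemokines and their feedback regulators, 16 were tested and 1 was higher in E at the unadjusted limit, Zc3h12a. It encodes an RNase that degrades cytokine mRNA and stood at 7.18, 8.65, 6.87, 8.25 and 11.0 FPKM in E1 to E5 and at 7.02, 5.71, 6.43, 5.67 and 7.75 FPKM in NE1 to NE5. E2, E4 and E5 were above every NE tumor. For Zc3h12a the log2 fold change was 0.33 (SE 0.14), and 0.22 without E5. Il1b, which encodes interleukin-1β, was at 82.5 FPKM in E5 and between 11.4 and 34.2 FPKM in the others, and Il17a had no reads in any tumor. Of 8 proteases that process chemokines, 6 were tested and 1 was higher in E, Mmp9, a gelatinase. Mmp9 stood at 35.3, 37.7, 103, 17.7 and 73.0 FPKM in E1 to E5 and at 23.8, 25.5, 26.6, 6.06 and 28.6 FPKM in NE1 to NE5. Of the E tumors, 4 were above every NE tumor and E4 was within the NE range. For Mmp9 the log2 fold change was 1.25 (SE 0.50), and 1.12 without E5. Without E5, none of the genes of these 4 lists passed the unadjusted limit in edgeR's test, and none was called with or without it.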

How the data were processed

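RNA of 10 tumors was analysed (5 E, 5 NE; groups and numbers from the labels). The authors aligned paired-end reads with Hisat2 and computed FPKM with Stringtie. Their methods name a rat assembly, whereas all 21959 genes of the table carry mouse Ensembl identifiers. The authors deposited, per tumor, whole-number read counts and FPKM of the genes. How the deposited counts were made, the genome build and the strand are not given in the sources used here. The deposited FPKM were recovered from the counts, the lengths and the library totals (largest relative deviation 3.77e-14) and hold no TMM factor. From the counts, edgeR 4.0.16 in R 4.3.3 was run over all genes (TMM, filterByExpr by group, glmQLFit, glmQLFTest, Benjamini-Hochberg). Tests were two-sided. The procedure was also run on simulated data, and no result of that run is given here. Alternatives were DESeq2 1.42.0, limma 3.58.1 on log2(FPKM + 1), library size alone, other count filters, a replicate block, another threshold, and leaving out tumors. No libraries held the same counts (over 45 pairs, chi-square divided by its degrees of freedom was at least 8.51).

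The members, lists and tests were chosen with earlier results of these data known. Values in every tumor are given for the 22 members with an unadjusted p of at most 0.05, among the 8 ligands or 8 receptors of highest mean FPKM, or belonging to the Cxcr2 axis, and for up to 4 genes per other pathway list with an unadjusted p of at most 0.05. Another member is not reported here by itself. Of the remaining members, those named, as well as Il1b, were picked after their values were seen. Counting floors (3 reads) cover only the error of counting, and duplicates from PCR could not be separated from distinct molecules.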

Additional observations from a re-analysis of the deposited data

Results flagged for a closer look

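In 21 of 74 groups of 5 tumors (members with values in every tumor, and sums of marker lists), 1 tumor lay farther from its neighbor than 0.71 of the whole range of its group, a limit that 3.7 such groups would pass by chance if their values were normal and independent. The groups are not independent, since the genes share tumors, normality was not tested, and some members were chosen by their unadjusted p or for the Cxcr2 axis, so that the excess is not a test. E5 stood above the other E tumors for Cxcl2 (69.6 FPKM), Cxcl5 (43.6 FPKM), Cxcl3 (12.1 FPKM), Cxcr4 (23.7 FPKM) and Cxcr2 (9.01 FPKM), and for the sums of neutrophil (333 FPKM), endothelial (37.1 FPKM) and fibroblast markers (1775 FPKM). These genes and lists share that tumor and its library, and what sets it apart was not tested.

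NE5 stood above the other NE tumors for Cxcl5 (6.15 FPKM) and Cxcr2 (1.07 FPKM) and for the mammary epithelial (49.3 FPKM) and differentiated keratinocyte markers (14.8 FPKM). NE1 was low for Ccl12 (17.9 FPKM) and Cxcr4 (9.22 FPKM). NE4 was low for Ccl2 (89.3 FPKM) and high for skeletal muscle (13559 FPKM) and adipocyte markers (25.8 FPKM). The other values that stood apart within a group were Cxcl10 in NE3 (74.1 FPKM), Cxcl15 in E3 (0.639 FPKM), the T cell markers in E1 (47.1 FPKM) and the skeletal muscle markers in E2 (2074 FPKM).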

How the results depend on the processing

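No chemokine gene and no gene at all was called with edgeR, DESeq2 or limma, under the other filters and scalings, or without any tumor, although 5 members had an unadjusted p of at most 0.05 with edgeR, 6 with DESeq2 and 1 with limma. DESeq2 gave no p to Cxcl2 and Cxcr2, which could not be called there. With the threshold at a 2-fold difference and the unadjusted limit of 0.05, 3 members and 56 genes passed. Members higher in E at the unadjusted limit numbered 3 without NE1 and NE4 together and 1 to 8 when each tumor was left out, and members lower in E numbered 1 with no filter on low counts, 2 without NE1 and NE4 and 0 to 4 when each tumor was left out. All genes at that limit numbered 1162 without NE1 and NE4 and 372 to 1350 when each tumor was left out. Of the 21 members with a fold change and values in every tumor, 14 kept its sign in all alternatives, but for 18 the value changed by more than 1.5 times when 1 tumor was left out. Without NE1 and NE4, the log2 fold change turned to −0.034 for Cxcl10 and −0.072 for Ccr1, and limma gave 0.077 for Ccr2. The differences of Cxcl2, Cxcl5, Cxcl3 and Cxcr2 were 1.37, 1.3, 0.95 and 0.60 with limma, against log2 fold changes of 3.21, 2.20, 2.17 and 2.27 with edgeR. These are unlike measures, since limma was fitted to log2(FPKM + 1), where the added 1 makes differences between low levels smaller. When each tumor was left out, the values ranged from −0.12 to 0.0080 for Ackr3, −0.011 to 0.80 for Ccl8, −0.038 to 0.51 for Ccl6, −0.014 to 0.24 for Cxcl10, −0.052 to 0.29 for Ccr1 and −0.32 to 0.019 for Cxcr4. The cause of these changes was not tested. The paper describes the tumors as matched pairs, and what tumors of the same number share is not given in the sources used here. With the replicate number as a block, 3 members were higher in E at the unadjusted limit (Cxcl5, Ccl4 and Cx3cl1) beside 380 of all genes (2.81%), Cxcl2, Cxcl3 and Ccl9 no longer passed, and the log2 fold change was 1.61 for Cxcl2, 1.61 for Cxcl5, 1.72 for Cxcl3, 1.07 for Cxcr2 and 0.034 for Ccr2. No pairing was seen in the values, where the correlations of same-numbered tumors were 0.04, −0.16, −0.10, −0.32 and 0.32. Only 1 of the 10 tumors correlated best with its own number. Single tumors that stood apart can hide a pairing in such correlations, so its absence was not shown. Cxcl15 did not pass the filter on low counts, and the size of difference that 5 tumors per group could detect was not tested.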
